A study of Mus musculus with 16 samples.

Results

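Toll-like receptors and the first proteins that work with them were followed in the cerebellum of mice that lack Npc1. The genes were Tlr1, Tlr2, Tlr3, Tlr4, Tlr7 and Tlr9, the co-receptors Cd14 and Ly96, the adaptor Myd88 and the kinase Irak4, 10 genes in all. They were found by symbol among the non-control spots of an Agilent one-colour mouse array, where they are read by 13 of 41174 probes. All 10 passed the filter on dim probes and were among the 17983 genes tested. They passed partly through the signal of the mutant arrays, since only 5 of the 10 were well above background on all 8 arrays.

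The study compared 3-week-old Npc1-/- mice with their wild-type (Npc1+/+) counterparts, both bred in house from heterozygotes of the strain BALB/cNctr-Npc1m1N/J on a BALB/c background. Neither group received a treatment and the labels name no transgene, so the Npc1 genotype is the only labelled difference between them. Whole cerebella of 4 mice per genotype gave total RNA, which was hybridised to 1 Agilent array per labelled replicate. The same study ran Illumina arrays, 8 of its 16 samples, which were not used here because their probe numbers carry no gene names. The sex of the mice is not labelled. Xist, the transcript of the inactive X chromosome in females, was well above background on Npc1-/- arrays 2 and 3 and on wild-type array 2 and on no other.

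Toll-like receptors are sensors of the innate immune system that recognise molecules of microbes and of damaged cells. Tlr1, Tlr2 and Tlr4 sit in the plasma membrane and recognise lipoproteins and lipopolysaccharide, whereas Tlr3, Tlr7 and Tlr9 sit in endosomes and lysosomes and recognise double-stranded RNA, single-stranded RNA and unmethylated DNA. All of them except Tlr3 pass the signal to Myd88 and the Irak kinases, which leads to NF-kB and to the transcription of cytokines and chemokines. In the brain the receptors are known chiefly from microglia. Npc1 itself is a membrane protein of late endosomes and lysosomes that exports cholesterol from them, the compartment in which the endosomal receptors work.

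Probe levels are given on a log2 scale relative to the 75th percentile of the processed signals on the same array, so that 0 is the brightness of the spot at that percentile. Levels of different probes are not comparable with each other. Fold changes are Npc1-/- over wild type. Npc1 read -2.53, -2.44, -2.32 and -2.60 on Npc1-/- arrays, against -0.52, -0.40, -0.64 and -0.37 on wild-type arrays, which went with the label of each array. It was 3.98-fold lower in Npc1-/- cerebella (log2 -1.99 ± 0.10, SE, limma adjusted p = 0.00045). Between 22182 and 28137 probes were well above background on each array, and the lowest number was that of wild-type array 2. The faintest probe well above background lay at -3.90 on wild-type array 2 and between -6.04 and -5.36 on the other 7, so dim probes were measured least well there. Each p-value rests on the spread among 4 mice per group, which limma draws towards the spread common to all genes, or probes, of the fit.

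Tlr7 was the only one of the 10 genes to pass the threshold. Its estimate was 3.01-fold higher in Npc1-/- cerebella, with 2 of the 4 wild-type arrays not well above background. Tlr2, Tlr1, Tlr4, Tlr3 and Cd14 had estimates of 1.26-fold to 1.70-fold that did not pass after adjustment over all genes. Tlr9, Ly96, Irak4 and Myd88 had estimates of 1.05-fold to 1.22-fold with intervals that included no difference. Of the 10, 1 rose and 0 fell at an adjusted p under 0.05, against 0.734% of all genes tested that rose and 0.0334% that fell. In a fit over all probes, 0 of the 11 tested probes of these genes passed, against 0.504% of all probes that rose, and 6 of the 11 were higher at an unadjusted p under 0.05, against 4.35% of all probes. In the fit by gene, 6 of the 10 were higher and 0 lower at an unadjusted p under 0.05, against 5.09% of all genes that were higher. The log2 fold change was above 0 for 10 of 10, against 46.6% of all genes, with a median of 0.43 against -0.02 over all genes tested. The estimate of Myd88 turned below 0 when arrays were scaled to their median. In RNA from whole cerebellum, a change in the number of cells of a type and a change in RNA per cell cannot be told apart.

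**Figure D1:**
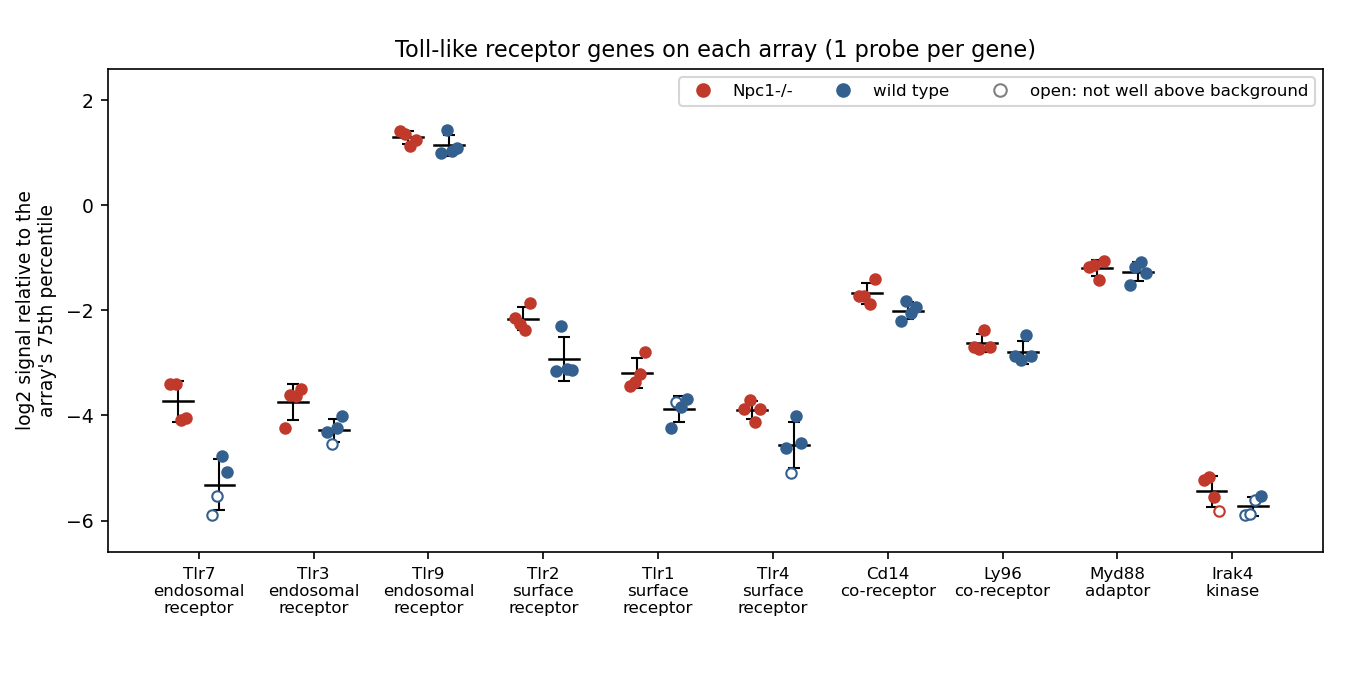
Level of each gene on every array, as log2 signal relative to the array's 75th percentile (y axis), with Npc1-/- arrays (red) left of wild-type arrays (blue). Bars are means and SDs of 4 arrays, and open points were not well above background. The Npc1-/- points of Tlr7 and Tlr1 lie above all wild-type points, and those of the other 8 genes overlap.

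Tlr7, the endosomal receptor for single-stranded RNA, is read by 1 probe at chrX:162079619-162079678 (minus strand, mm7). Its levels were -3.40, -3.39, -4.08 and -4.05 on Npc1-/- arrays 1 to 4, against -5.89, -5.53, -4.78 and -5.08 on wild-type arrays 1 to 4. All 4 Npc1-/- arrays lay above all 4 wild-type arrays, a separation shared by 2.96% of all genes in that direction. The means were -3.73 ± 0.39 in Npc1-/- and -5.32 ± 0.49 in wild type (SD, n = 4 each). This is a difference of 1.59 ± 0.27 on the log2 scale (SE, 95% interval 0.96 to 2.21, limma adjusted p = 0.0457). The probe was well above background on 4 Npc1-/- arrays and on wild-type arrays 3 and 4 only, so the lower end of the comparison rests partly on faint spots. Within the 3 slides that held both genotypes the difference was 1.38, 1.81 and 1.80. The values 1.81 and 1.80 rest on wild-type arrays 2 and 1, where the probe was not well above background. On wild-type array 2 the faintest probe well above background, at -3.90, lay above the Tlr7 levels of Npc1-/- arrays 3 and 4. On the same arrays the summed signal of 12 microglia markers, in multiples of the array's 75th percentile, was 16.0 to 21.0 in Npc1-/- and 10.8 to 12.2 in wild type, without overlap.

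The call for Tlr7 is close to the threshold. It was lost in the fit over all probes (limma adjusted p = 0.0568), with slide or scan day as a block (0.0769 and 0.0996), with median, quantile or normexp normalization (0.0921, 0.263 and 0.0862) and with no filter on dim probes (0.146), and the probe does not pass a filter on all 8 arrays. The normexp setting, whose offset of 50 draws dim probes together, gave a log2 fold change of 0.63. In addition, leaving out 1 array at a time gave log2 fold changes of 1.40 to 1.77 with adjusted p of 0.0378 to 0.160, under 0.05 only without wild-type array 3. Its gene lies on the X chromosome, and the arrays with an Xist signal, Npc1-/- 2 and 3 and wild-type 2, had Tlr7 levels of -3.39, -4.08 and -5.53, which fall on both sides of their groups' means. Whether sex plays a part in the result was not tested.

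Tlr3, the endosomal receptor for double-stranded RNA, signals through Ticam1 and not through Myd88, and has 2 probes on chromosome 8. The brighter one, at chr8:44182210-44182269 (minus strand, mm7), read -4.24, -3.61, -3.63 and -3.49 on Npc1-/- arrays, against -4.32, -4.55, -4.25 and -4.01 on wild-type arrays. Npc1-/- array 1 fell among the wild-type values and the other 3 lay above all of them. Its log2 fold change was 0.54 ± 0.19 (SE, 95% interval 0.12 to 0.96, limma adjusted p = 0.487). The dimmer probe, at chr8:44181930-44181989, gave 0.22 ± 0.34 with a limma adjusted p of 0.869 over all probes. Its values ran from -5.28 to -4.19 in Npc1-/- and from -5.22 to -3.90 in wild type and overlapped over most of that range.

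Tlr9, the endosomal receptor for unmethylated CpG DNA, read 1.43, 1.37, 1.14 and 1.25 on Npc1-/- arrays, against 1.00, 1.44, 1.03 and 1.10 on wild-type arrays, at chr9:105956096-105956155 (plus strand, mm7). The highest single value was that of wild-type array 2, and the groups overlapped. On the log2 scale the difference was 0.15 ± 0.13 (SE, 95% interval -0.13 to 0.44, limma adjusted p = 0.752). The upper end of that interval lies under the lower end of the interval of Tlr7, although both genes encode receptors that reach endosomes with the help of the same chaperone, Unc93b1. A difference between the genes themselves was not tested.

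Tlr2 and Tlr1 pair with each other in the plasma membrane to recognise triacylated lipoproteins. Both are read by a 60-base probe, shown here because the genes are paralogs whose signals could be confused. Capitals mark the longest run of bases that both probes hold, 7 bases. In the best ungapped alignment of the probes 29 of 47 overlapping bases were identical (61.7%), and cross-hybridisation was not tested. The probes lie on different chromosomes, Tlr2 at chr3:83941473-83941532 and Tlr1 at chr5:64279687-64279746, both on the minus strand of mm7.
Tlr2: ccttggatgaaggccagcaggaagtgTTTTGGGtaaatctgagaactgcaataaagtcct
Tlr1: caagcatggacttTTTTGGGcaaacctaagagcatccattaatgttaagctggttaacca

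Tlr2 read -2.14, -2.26, -2.36 and -1.85 on Npc1-/- arrays, against -3.15, -2.29, -3.11 and -3.13 on wild-type arrays. Wild-type array 2 fell among the Npc1-/- values and the other 3 wild-type arrays lay below all of them. The log2 fold change was 0.77 ± 0.21 (SE, 95% interval 0.28 to 1.25, limma adjusted p = 0.281). The probe is printed at 10 places on each array. On wild-type array 2 the 10 spots ran from -3.24 to -1.02 with an SD of 0.69, and on the other 7 arrays the SD was 0.05 to 0.10. Without wild-type array 2 the log2 fold change was 0.98 with a limma adjusted p of 0.0229, and with the median in place of the mean of the spots it was 0.80 with an adjusted p of 0.152.

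**Figure D2:**
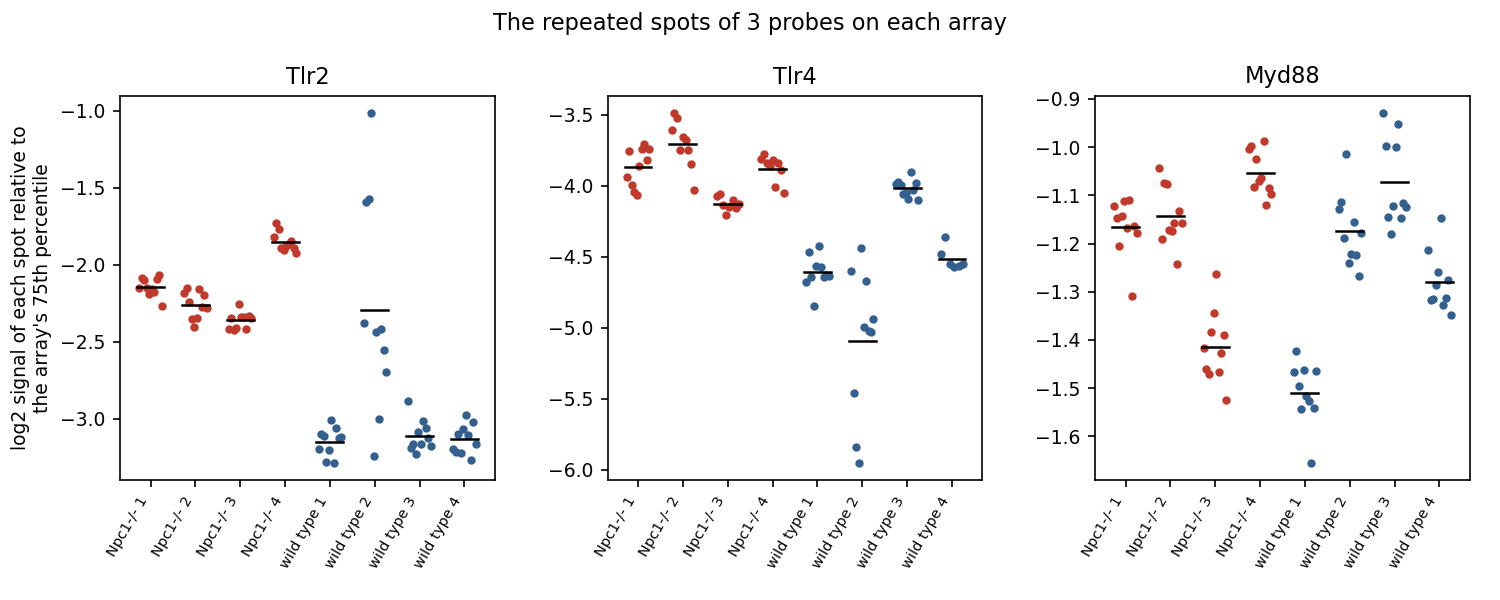
Single spots of the 3 probes that are printed 10 times per array, as log2 signal relative to the array's 75th percentile (y axis), by array (x axis), with Npc1-/- in red and wild type in blue; bars are means. The Tlr2 spots of wild-type array 2 run from -3.24 to -1.02, and the Myd88 spots are tight on all 8 arrays.

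Tlr1 read -3.43, -3.35, -3.21 and -2.79 on Npc1-/- arrays, against -4.24, -3.75, -3.83 and -3.69 on wild-type arrays. The groups did not overlap, and the gap between the lowest Npc1-/- and the highest wild-type array was smaller than the range within either group. Its log2 fold change of 0.68 ± 0.17 (SE, 95% interval 0.28 to 1.08) had a limma adjusted p of 0.220. Leaving out single arrays gave 0.54 to 0.76, with adjusted p of 0.250 to 0.378. The probe was well above background on 4 Npc1-/- and 3 wild-type arrays.

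Tlr4, the receptor for lipopolysaccharide, is read by a probe at chr4:66276388-66276447 (plus strand, mm7) that is also printed 10 times. It read -3.87, -3.70, -4.13 and -3.88 on Npc1-/- arrays, against -4.61, -5.09, -4.02 and -4.51 on wild-type arrays. Wild-type array 3 lay among the Npc1-/- values, and wild-type array 2, where the probe was not well above background and its spots had an SD of 0.51, gave the lowest value. Over all arrays the log2 fold change was 0.66 ± 0.21 (SE, 95% interval 0.18 to 1.15, limma adjusted p = 0.405), and within the 3 slides with both genotypes it was 0.31, 1.22 and 0.48. A second probe named Tlr4 in the files, at chr4:66363220-66363279, was well above background on no array.

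Set side by side, the log2 fold changes of the surface receptors lay close together, at 0.66 to 0.77 with a median of 0.68, and those of the endosomal receptors spread from 0.15 to 1.59 with a median of 0.54. The difference of the medians, endosomal minus surface, was -0.14 and was not tested. On single arrays the same difference of medians, taken after centring each gene on its mean over the 8 arrays, was -0.15, 0.12, 0.21 and -0.21 in Npc1-/- and 0.31, -0.33, 0.06 and 0.17 in wild type. The signs were mixed in both genotypes. The range within the endosomal class, 1.43, came from Tlr7 at one end and Tlr9 at the other.

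**Figure D3:**
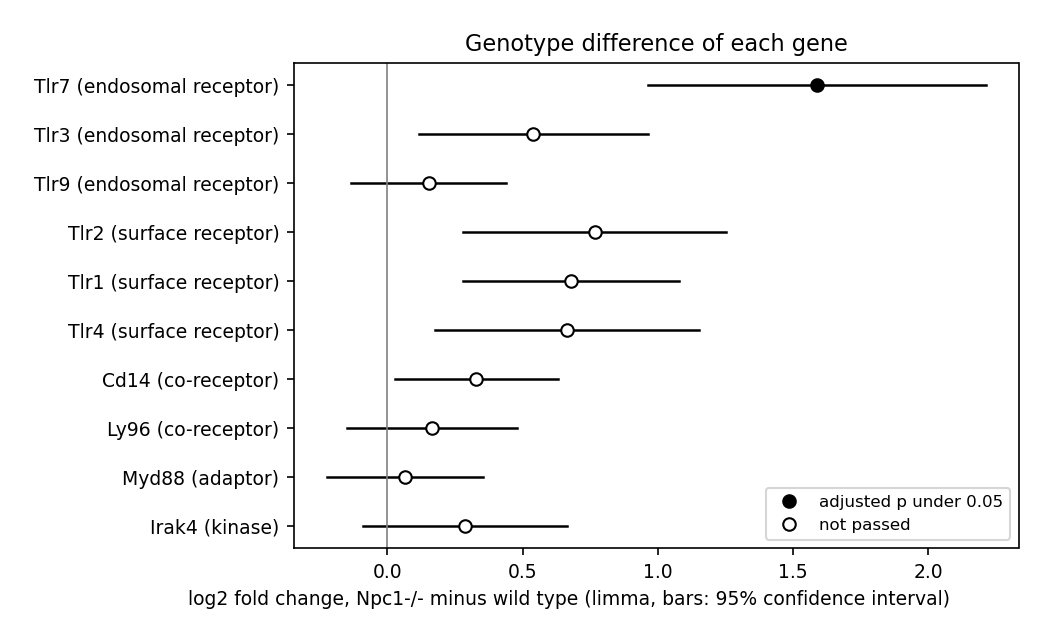
Log2 fold change of each gene, Npc1-/- minus wild type (x axis), by role; points are limma estimates and bars their 95% intervals. The interval of Tlr7 runs from 0.96 to 2.21 and is the only one of a gene past the threshold, and the intervals of Tlr9, Ly96, Myd88 and Irak4 include 0.

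Cd14 binds lipopolysaccharide and hands it to Tlr4. It read -1.73, -1.71, -1.87 and -1.39 on Npc1-/- arrays, against -2.21, -1.83, -2.05 and -1.94 on wild-type arrays. Npc1-/- array 3 fell just below wild-type array 2, and the other Npc1-/- arrays lay above all wild-type arrays. The genotypes differed by 0.33 ± 0.13 on the log2 scale (SE, 95% interval 0.03 to 0.63, limma adjusted p = 0.609), and it was 0.34, 0.27 and 0.34 within the 3 slides with both genotypes.

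Ly96, also called MD-2, is the small protein that holds lipopolysaccharide beside Tlr4. Its 60 bases span chr1:16895437-16898709 (plus strand, mm7), 3273 bases of the genome, so the probe crosses an intron and reads spliced RNA. The sequence is shown for that reason.
Ly96: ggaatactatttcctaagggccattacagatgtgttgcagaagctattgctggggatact

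The Ly96 levels were -2.70, -2.74, -2.37 and -2.70 on Npc1-/- arrays, against -2.87, -2.95, -2.47 and -2.87 on wild-type arrays. In each group 3 arrays lay within a narrow band and array 3 stood above them, and the groups overlapped because of wild-type array 3. The estimate was 0.17 ± 0.14 on the log2 scale (SE, 95% interval -0.15 to 0.48, limma adjusted p = 0.752).

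Myd88, the adaptor that joins the receptors to the Irak kinases, had the tightest spots of the 3 genes with repeated spots. Its probe at chr9:119016408-119016467 (minus strand, mm7) is printed 10 times, with an SD between spots of 0.05 to 0.09 on every array. The levels were -1.17, -1.14, -1.41 and -1.05 on Npc1-/- arrays, against -1.51, -1.17, -1.07 and -1.28 on wild-type arrays. The groups overlapped throughout, and the SD between arrays, 0.16 in Npc1-/- and 0.19 in wild type, was larger than that between spots. Its log2 fold change was 0.06 ± 0.13 (SE, 95% interval -0.22 to 0.35, limma adjusted p = 0.872). It was -0.04 with arrays scaled to their median and -0.02 without wild-type array 1, so no direction can be given.

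Irak4 is the kinase that Myd88 recruits first. Its brighter probe, at chr15:94571157-94571216 (plus strand, mm7), read -5.23, -5.17, -5.56 and -5.82 on Npc1-/- arrays, against -5.89, -5.88, -5.61 and -5.54 on wild-type arrays. Only 3 Npc1-/- arrays and 1 wild-type array were well above background, and the groups overlapped. The log2 fold change was 0.29 ± 0.17 (SE, 95% interval -0.09 to 0.66, limma adjusted p = 0.752). The other Irak4 probe was well above background on 1 Npc1-/- array only.

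The rest of the pathway was read from 7 lists with 99 genes, of which 71 were tested. Of these, 8 rose and 0 fell in the limma fit, against 0.734% of all genes that rose, and 6 of the 8 are genes that the receptors can induce. At an unadjusted p under 0.05, 21 were higher and 1 lower, against 5.09% of all genes that were higher. The 21 include Ccl3, Cxcl10, Saa3 and Cd36, the last named after its values were seen, and the 8 include Ccl3 and Cxcl10. These genes passed the filter on dim probes through the Npc1-/- arrays alone, so both counts are descriptions. With slide as a block 2 of the 71 rose. None of the 20 tested adaptors and kinases passed, 2 being higher at an unadjusted p under 0.05, and their median was 0.01. None of the 13 tested inhibitors passed either, 1 being higher at an unadjusted p under 0.05, and their median was -0.01. The adaptor of kinase complexes Tab1 had a log2 fold change of -0.10, the ubiquitin ligase Traf3 0.10, and the inhibitors Tollip and Nfkbia -0.03 and 0.08. None of the 6 tested cytosolic sensors passed and 3 were higher at an unadjusted p under 0.05 (median 0.35), with the peptidoglycan sensor Nod1 and the RNA sensor adaptor Mavs at -0.13 and -0.05. Zbp1, a sensor of Z-form nucleic acids named after its values were seen, had the highest estimate of them, 1.67 ± 0.34 (SE, limma adjusted p = 0.0878), and passed under median scaling (adjusted p = 0.0276).

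Among the other receptors only Tlr6, which pairs with Tlr2 for diacylated lipoproteins, was tested. Its log2 difference was 0.05 ± 0.24 (SE, limma adjusted p = 0.956), with levels from -5.12 to -4.41 in Npc1-/- and from -5.42 to -4.37 in wild type, so the groups overlapped. The direction of this estimate turned with the scaling and with single arrays. Tlr5, Tlr8, which sits beside Tlr7 on the X chromosome, and Cd180 were well above background on no array. Tlr11, Tlr12 and Tlr13 were not found on the array under these names.

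Of the 10 genes that deliver ligands or fold, carry and cut the receptors, 1 rose, and the median of the list was 0.08. Ctss, a lysosomal protease known to take part in cutting Tlr7 and Tlr9 into their active form, read 3.26, 3.42, 3.24 and 3.55 on Npc1-/- arrays, against 1.97, 2.19, 2.39 and 2.33 on wild-type arrays. The groups stood far apart, and the level was 2.22-fold higher in Npc1-/- (log2 1.15 ± 0.12, SE, limma adjusted p = 0.0058). Median scaling ended the call (adjusted p = 0.0731), as did slide as a block (adjusted p = 0.05003), with log2 fold changes of 1.04 and 1.18. Unc93b1, which escorts the endosomal receptors from the endoplasmic reticulum and was picked here after its values were seen, did not pass at 0.57 ± 0.16 (limma adjusted p = 0.312), although its groups did not overlap.

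Of the 10 tested transcription factors 1 rose, with a median of 0.23. Irf8, a factor of microglia and other myeloid cells that also works after Tlr9, read -1.19, -1.05, -1.17 and -0.92 on Npc1-/- arrays, against -1.98, -1.80, -1.61 and -1.65 on wild-type arrays. It was 1.60-fold higher without overlap (limma adjusted p = 0.0423). Leaving out any 1 array ended that call, with log2 fold changes of 0.60 to 0.73 and adjusted p of 0.0574 to 0.162. Median scaling (limma adjusted p = 0.685) and quantile normalization (0.134) ended it as well, with log2 fold changes of 0.57 and 0.64. Irf8 passed in 4 of 20 alternatives.

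Of the 11 tested genes that the receptors can induce, 6 rose, with a median log2 fold change of 1.11. Ccl3, Cxcl10 and Saa3 passed the filter on dim probes through the Npc1-/- arrays alone, so the count and the median are descriptions. Among probes well above background on all 8 arrays 1 gene of the list passed, Icam1, and with slide as a block 2 passed, Ccl5 and Cxcl10. Ccl5 read -2.30, -2.32, -2.38 and -2.32 on Npc1-/- arrays, against -3.87, -4.60, -4.45 and -4.05 on wild-type arrays. This chemokine for T cells and monocytes was even across the mutants and 3.77-fold higher than in wild type (limma adjusted p = 0.0017). Ccl4, a chemokine for macrophages and lymphocytes, was 3.24-fold higher (limma adjusted p = 0.0062).

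Ccl3 and Cxcl10 were well above background on 4 Npc1-/- arrays and on no wild-type array, so only a bound can be given. The bound was taken against the faintest measurable signal of the wild-type arrays, or the probe's own where that was higher. Cxcl10, an interferon-induced chemokine, was at least 3.70-fold higher, and Ccl3, a macrophage chemokine, at least 2.31-fold higher. The bounds were not tested. The limma adjusted p-values, 0.0236 for Cxcl10 and 0.0348 for Ccl3, belong to the fitted values, which use wild-type signals not well above background. These bounds hold for the main scaling: under normexp, whose offset draws dim probes together, the log2 fold changes were 0.90 for Cxcl10 and 0.60 for Ccl3. With both genes and Saa3 at their bounds the median of the list stayed 1.11. The other 2 that passed, named after their values were seen, were the adhesion molecule Icam1 (2.46-fold) and Tnfaip2 (2.16-fold). With 1 array left out at a time, Ccl5, Ccl4 and Icam1 passed in 8 of 8 fits and Tnfaip2 in 0 of 8, and among the 4 fits that tested Cxcl10 and Ccl3 these passed in 3 and 1. Slide as a block ended the calls of Ccl4 (adjusted p = 0.110), Icam1 (0.0873), Ccl3 (0.220) and Tnfaip2 (0.239). Many cytokines and enzymes of receptor activation could not be followed, since 10 of the 25 listed genes, among them Tnf, Il6, Il1a, Nos2, Ptgs2 and Ifnb1, were well above background on no array. The cytokine gene Il1b was tested and did not pass at 0.15 ± 0.19 (limma adjusted p = 0.808). These genes are induced by other receptors as well, and which receptor acts was not measured.

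**Figure D4:**
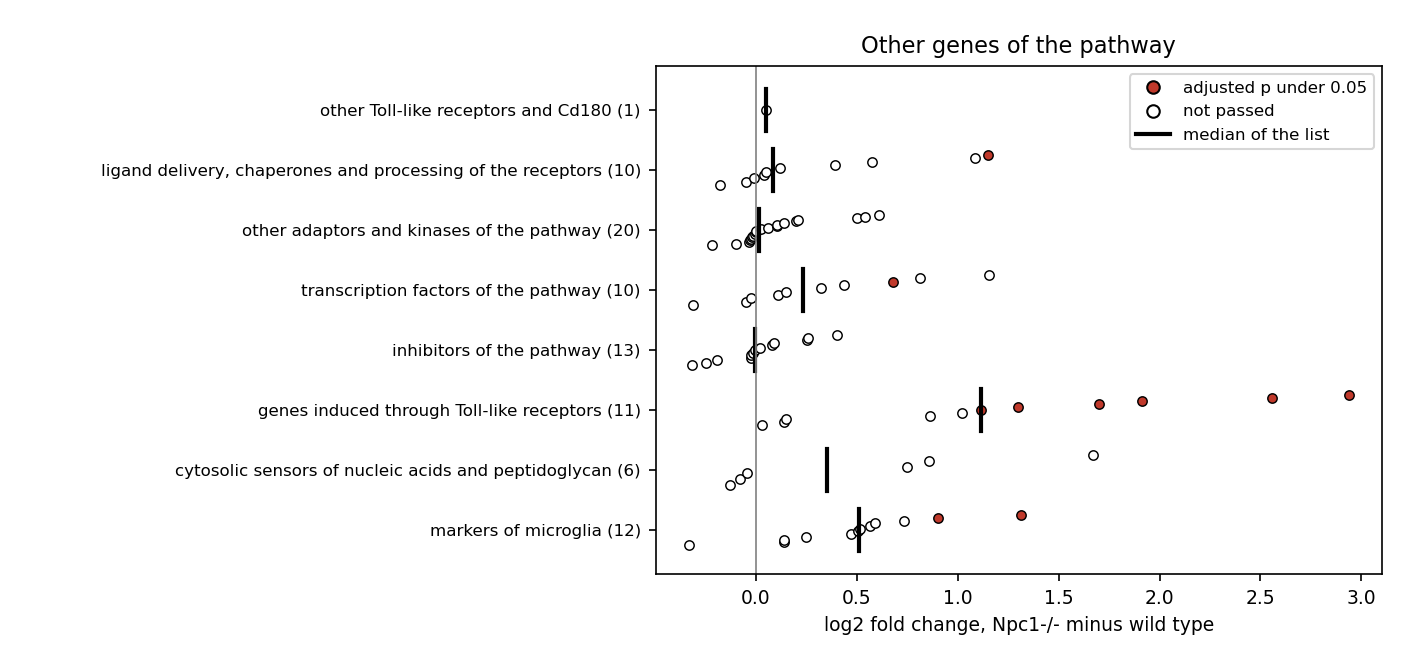
Log2 fold change of every tested gene, Npc1-/- minus wild type (x axis), by list (y axis, number tested in brackets), with bars at the list medians. Filled points had an adjusted p under 0.05. Genes induced through Toll-like receptors have a median of 1.11, against 0.01 for other adaptors and kinases; the points of Ccl3 and Cxcl10 are fitted values and not their bounds.

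Of 12 markers of microglia measured, 2 rose and 10 did not pass, against 0.734% of all genes that rose: Tyrobp, a signalling adaptor of myeloid receptors, was 2.49-fold higher (limma adjusted p = 0.0068) and Fcrls, a scavenger receptor of microglia, 1.87-fold higher (limma adjusted p = 0.0423). Over the 12 the median difference was 0.51 on the log2 scale, from -0.33 to 1.31, and 11 were above 0.

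The receptor genes were also set against the median of the microglia markers on the same array. After this subtraction the difference between the genotypes on the log2 scale was 1.06 for Tlr7, 0.24 for Tlr2, 0.15 for Tlr1, 0.14 for Tlr4 and 0.01 for Tlr3. For all 5 the groups overlapped. Relative to the markers, Tlr7 was 0.96, 0.96, 0.26 and -0.05 on Npc1-/- arrays, against -1.06, -0.73, 0.17 and -0.49 on wild-type arrays. The lowest Npc1-/- array, number 4, lay under the highest wild-type array, number 3. The difference was -0.37 for Tlr9, -0.36 for Ly96, -0.24 for Irak4 and -0.20 for Cd14, with overlap. Myd88 was at -0.11, -0.09, -0.37 and -0.35 in Npc1-/- and 0.02, 0.33, 0.57 and 0.02 in wild type, a difference of -0.46 without overlap. Its groups overlapped before the subtraction, and the share of all genes that separate after it was not counted, so the separation says nothing particular to Myd88. No test was made on these differences, because the genes were chosen with earlier results known.

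**Figure D5:**
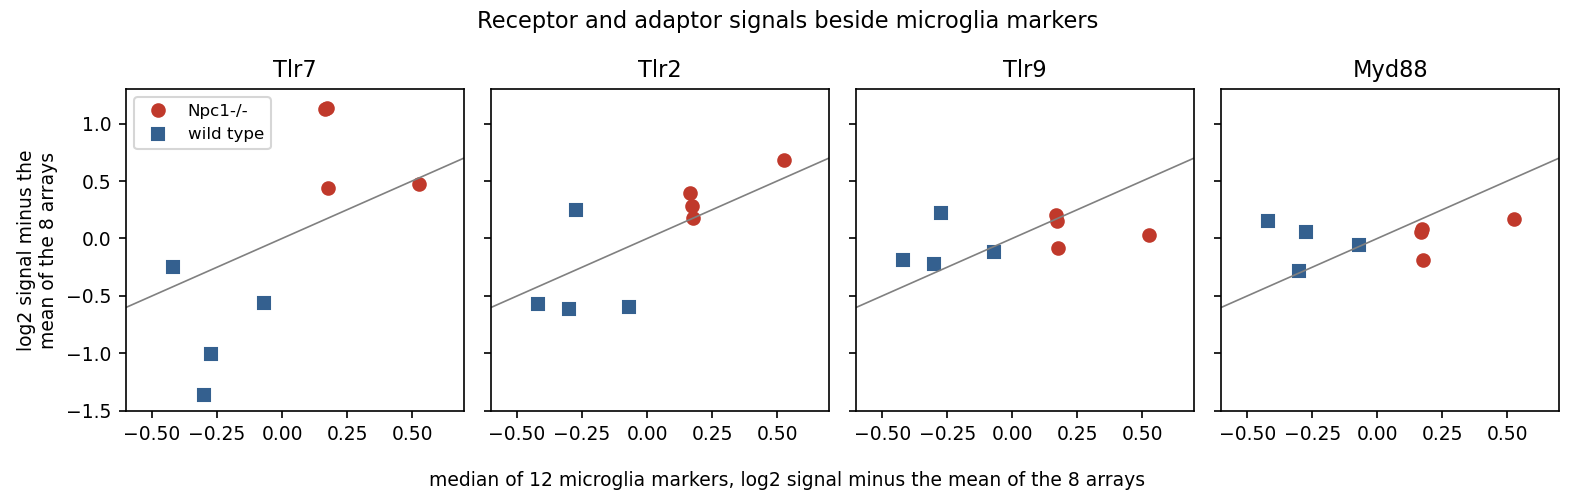
Level of 4 genes (y axis) against the median of 12 microglia markers on the same array (x axis), both as log2 signal minus the mean of the 8 arrays; red circles are Npc1-/- and blue squares wild type, and the line marks equal deviation. The markers reach 0.53 in Npc1-/- and -0.42 in wild type, and in each panel the Npc1-/- points lie to the right of the wild-type points.

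Markers of other cells that can carry these receptors did not all move one way. Of 6 markers of perivascular macrophages, Ms4a7 rose (log2 2.07, limma adjusted p = 0.0074) and Pf4 fell (log2 -1.81, limma adjusted p = 0.0423). Ms4a7 was the only marker of the 6 with a log2 fold change above 0, and their median was -0.45. Their summed signals were 0.38 to 0.77 in Npc1-/- and 0.45 to 0.86 in wild type. Of 10 markers of blood monocytes and neutrophils 4 were tested and Plac8 rose (log2 1.49, limma adjusted p = 0.0482), while Ccr2 and Elane were well above background on no array. Of 6 B cell markers 4 were tested and Cd79b rose (log2 0.89, limma adjusted p = 0.0296), with summed signals of 0.87 to 1.21 in Npc1-/- and 0.56 to 0.78 in wild type. Ighm, named here after its values were seen, gave most of each sum and did not pass (log2 0.47, limma adjusted p = 0.501). Cd79a, the partner of Cd79b in the B cell receptor, was well above background on no array. Only 1 of 6 markers of T and natural killer cells was measured, Cd3e, which did not pass at 0.27. None of the 32 tested markers of astrocytes, oligodendrocytes, endothelium, cerebellar neurons, choroid plexus or red blood cells passed in the limma fit. At an unadjusted p under 0.05, 1 of the 32 was higher, against 5.09% of all genes. In the other direction 6 were lower, a share not counted over all genes. The marker that was higher was Gfap of astrocytes, named after its values were seen, at log2 1.08 without overlap (limma adjusted p = 0.0516). The 6 oligodendrocyte markers had the lowest median, -0.55. With 1 array left out at a time, Ms4a7 and Tyrobp passed in 8 of 8 fits, Pf4 in 2 and Fcrls, Plac8 and Cd79b in 1 each. With slide as a block none of the 6 passed (adjusted p = 0.0609 for Ms4a7 and 0.0873 for Tyrobp), and quantile normalization ended the call of Ms4a7 (0.0653). The part of any of these cells in the receptor results was not tested.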

How the data were processed

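Per the submitters' processing notes, the scanner files were made with Agilent Feature Extraction 9.5. They were deposited with intensity values that have the background removed on each array and no scaling across arrays, per the file headers. Probe positions are in build mm7. Flag columns in the deposited files mark spots that are well above background or outliers. The number of arrays limits the precision. After control spots were dropped and outlier spots set to missing, signals were scaled to each array's 75th percentile over non-control spots on the log2 scale, and repeated spots were averaged. A probe was kept where at least 4 of 8 arrays had it well above background, with the brightest probe per gene. Symbols were updated through a RefSeq table (GRCm38.p6), which matched 22951 probes on accession, 6659 on current symbol and 3109 on an older one. A further 8455 keep the name given in the deposited files. The genotypes were set against each other with limma's lmFit and eBayes (version 3.58.1, R 4.3.3, two-sided), and p-values were adjusted by Benjamini-Hochberg over all genes, or all probes, with a threshold of 0.05. The fit was tested on simulated data.

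Groups and replicate numbers came from the sample labels. The genes and lists were chosen with earlier results of these data known. Named genes are the 10 receptor and adaptor genes, Npc1 and, per list, the passing genes of largest change (at most 4) or the 2 brightest of a list without any; exceptions are named as such. Alternatives were recomputed for these 10 genes, Npc1, Tlr6, Unc93b1, Zbp1 and the passing genes, and for other list genes by counts. Same-numbered arrays were checked for pairing: the correlations of their deviations were 0.15, 0.04, -0.45 and 0.20. The labels name no pairs and the samples were fitted unpaired, although such correlations cannot exclude a pairing. Probe sequences are those of the deposited files.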

Additional observations from a re-analysis of the deposited data

Results flagged for a closer look

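Of 62 groups of 4 arrays examined, 6 had 1 array so far from the nearest other, as a share of the group's range, that it passed Dixon's 95% critical value; chance gives about 1 in 20. Among wild-type arrays, number 2 stood above the others for Tlr2 (-2.29, the others -3.15 to -3.11), for the second Tlr4 probe, not above background there (-5.89, the others -7.93 to -7.77), and for Ccl4 (-4.52, the others -5.23 to -5.18). The Ccl4 value lay under -3.90, the faintest probe well above background on that array, so Ccl4 was not well above background there either. Array 3 stood highest for Ly96 in both genotypes, at -2.37 in Npc1-/- (the others -2.74 to -2.70) and -2.47 in wild type (the others -2.95 to -2.87). Pf4 was lowest on Npc1-/- array 3 (-3.94, the others -3.53 to -3.48).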

How the results depend on the processing

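The main settings called 132 genes higher and 6 lower, 1 of the 10 receptor genes and 8 pathway genes higher, and 137 probes higher and 5 lower, 0 of them for the 10 genes. Genes higher numbered 82 with quantile normalization, 69 with median scaling, 56 with no filter on dim probes, 83 with probes above background on all arrays, 37 with slide as a block and 84 without wild-type arrays 2 and 3, an alternative chosen after seeing the data. Genes lower numbered 3 with no filter, 1 with the slide block and 2 without those arrays. The receptor genes called were 0 under normexp with quantile normalization, quantile normalization, median scaling, either other filter, the slide or scan day block, and without those 2 arrays. Pathway genes higher were 4 with no filter, 3 with the strict filter, 2 with the slide block and 4 with the scan day block. Probes higher numbered 89 with normexp, 86 with quantile normalization, 80 with median scaling, 58 with no filter, 79 with the strict filter, 35 with the slide block, 89 with the scan day block and 78 without the 2 arrays; probes lower numbered 9 with median scaling, 1 with the slide block and 2 without the 2 arrays. Scaling by brighter probes called 1 probe of the 10 genes. With the replicate number as a block, which the labels do not give as a pairing, 26 genes were higher and 1 lower, 25 probes higher and 1 lower, 1 pathway gene and 0 receptor genes. Leaving out 1 array at a time gave 52 to 144 genes higher, 2 to 8 lower, 0 to 1 receptor genes, 4 to 7 pathway genes, 54 to 143 probes higher, 3 to 6 lower and 0 to 1 probes of the 10 genes.

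Tlr7 kept its direction in 19 alternatives (log2 0.63 to 1.77) and passed in 4 (adjusted p 0.0320 to 0.263 over all). Those 4 include the mean over the probes of a gene and the median over the spots of a probe. Neither can change the estimate of Tlr7, which has 1 probe with 1 spot per array. The others were scaling by brighter probes and leaving out wild-type array 3. Estimates that turned sign were near 0: Myd88 was -0.044 with median scaling and -0.019 (without wild-type array 1) to 0.14 with 1 array left out. Tlr6 was -0.0015 with normexp, -0.10 with quantile normalization, -0.059 with median scaling, -0.040 with the slide block, -0.047 with the scan day block and -0.13 to 0.22 with 1 array left out, below 0 without Npc1-/- array 4 or wild-type array 1. The dimmer Tlr3 probe was -0.18 without wild-type arrays 2 and 3. Median scaling moved the median of all genes to -0.12. Endosomal minus surface ranged from -0.34 to -0.02 and had no value under the strict filter. The cause of these shifts was not tested. With no filter more genes were tested (27670), and the fits with arrays left out had fewer arrays. Signal over background limits the dim genes, Tlr7 and Irak4 above all.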
